A study of Rattus norvegicus with 145 samples.

Results

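Tpx2, Tacc3, Stmn1, Kifc1 and Ercc6l, 5 of the 17337 genes counted in rat liver, were selected on measured values of experiment B. Each was called up-regulated by acetamide at any dose in all 4 count tables of that experiment, which hold each sex on day 8 and on day 29. A call required at least 1.5-fold the level of the vehicle control together with an adjusted p (Benjamini-Hochberg, over all genes tested) that did not exceed 0.05 in edgeR. Of 11124 genes tested in all 4 tables, 6 met this, and the sixth was the acyl-CoA thioesterase gene Acot1, which is not taken up here. The experiment B contrasts are therefore given as a description, without a test. Experiment A was not used for the choice and was tested. The way the members deviate together among rats of a dose group was tested too and was not itself used. It is not fully apart from the choice, since the adjusted p depends on the spread of each gene. In males day 29 all 5 were called at the highest dose only, where 1 rat was high in all 5 members. Without that rat 4 of the 5 were still called at any dose, and Ercc6l was not.

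In a dividing cell the spindle, an array of microtubules between opposite poles, attaches to the kinetochores of the chromosomes and pulls sister chromatids apart. TPX2 binds microtubules near chromosomes, where it starts their assembly and activates the kinase Aurora A. TACC3 is phosphorylated by Aurora A and, with clathrin and the polymerase ch-TOG, bridges the microtubules of kinetochore fibres. Stathmin, the product of Stmn1, binds free tubulin and favours the shrinking of microtubules, and its phosphorylation at mitosis relieves this. Kifc1 encodes a kinesin of the minus-end-directed type that bundles microtubules and focuses spindle poles. Ercc6l encodes PICH, a DNA translocase of centromeres and of the fine DNA bridges of anaphase, and is thus a gene of chromatid separation rather than of the spindle proper. Most hepatocytes of an adult rat do not divide, and these transcripts are known to be scarce in resting liver.

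Liver (left lobe) RNA of rats in 29 groups of 5 was sequenced after daily gavage of acetamide in water or of water alone, the vehicle control. Experiment A held 25 Hsd:WI males aged 9 to 10 weeks at 0, 30, 100, 300 and 1000 mg/kg/day (mkd), taken on day 8 after 7 days of dosing. Experiment B held 120 Crl:WI rats aged 8 to 10 weeks, 30 for each sex and day (named males day 8, females day 29 and so on), at 0, 300, 500, 750, 1000 and 1500 mkd for 7 or 28 days. Each rat is 1 library. The vehicle males of day 29 carry the exposure label of the other experiment, while their strain, age and title place them in experiment B. Per rat, between 15449716 and 39986531 reads fell on genes. Summed over 10 hepatocyte genes such as Alb and Apoa1, the vehicle livers had between 169500 and 352200 CPM, reads scaled to library size, so that hepatocyte transcripts were present in all. Reads of Tpx2 may be shared with its pseudogene Tpx2-ps1, and Tacc3 overlaps Tmem129, so their counts are uncertain to that extent. Replicate 3 of the 1500 mkd males of day 29 stood above its group for all members, and replicate 5 of the 1500 mkd females of day 29 was the lowest of its group for all members. Results that rest on these rats are given with and without them. Levels below are CPM scaled by TMM factors within each table, and levels of different genes are not compared, since CPM is not per length. In experiment A these factors ran from 0.791 to 1.91, and every rat at 1000 mkd had a larger factor than every control rat. A larger factor lowers all CPM of a rat.

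The sequence before the transcription start of the members is shown because a shared CCAAT box and the cell cycle homology region (CHR) are textbook features of genes that are expressed before mitosis. RefSeq (GRCr8) gave a promoter for 4 of the 5 members, of which the 250 bases before the start are printed 5′ to 3′ along the gene's strand. Capitals mark matches, on either strand, to the CCAAT box (CCAAT, which reads as ATTGG on the other strand), the CHR (TTTGAA or TTCGAA) or an E2F site. The E2F letters searched were TTTGGCGC, TTTCGCGC, TTTCCCGC, TTTGCCGC, TTTGGCGG and TTTCCCGG, also on both strands.
Tacc3, chr14:81289699-81289948, minus strand: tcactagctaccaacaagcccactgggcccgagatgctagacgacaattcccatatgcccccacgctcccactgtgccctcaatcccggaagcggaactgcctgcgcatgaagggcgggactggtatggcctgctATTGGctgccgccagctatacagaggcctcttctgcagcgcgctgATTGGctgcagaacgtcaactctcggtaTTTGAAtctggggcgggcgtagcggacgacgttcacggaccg
Stmn1, chr5:151964929-151965178, plus strand: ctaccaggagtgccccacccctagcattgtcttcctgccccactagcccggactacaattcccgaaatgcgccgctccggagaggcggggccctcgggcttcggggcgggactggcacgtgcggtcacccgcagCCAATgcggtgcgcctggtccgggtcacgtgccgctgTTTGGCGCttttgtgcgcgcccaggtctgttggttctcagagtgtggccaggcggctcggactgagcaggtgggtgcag
Kifc1, chr20:5000679-5000928, plus strand: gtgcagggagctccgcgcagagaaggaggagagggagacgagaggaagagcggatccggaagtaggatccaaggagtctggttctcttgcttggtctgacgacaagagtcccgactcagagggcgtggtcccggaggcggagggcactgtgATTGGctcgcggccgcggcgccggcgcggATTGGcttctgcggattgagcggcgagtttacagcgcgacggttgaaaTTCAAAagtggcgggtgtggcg
Ercc6l, chrX:71301187-71301436, minus strand: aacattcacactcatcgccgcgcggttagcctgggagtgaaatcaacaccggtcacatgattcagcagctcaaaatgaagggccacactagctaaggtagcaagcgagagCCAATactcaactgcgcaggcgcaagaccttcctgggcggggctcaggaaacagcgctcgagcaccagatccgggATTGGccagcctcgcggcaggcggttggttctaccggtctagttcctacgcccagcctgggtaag
All 4 promoters held a CCAAT box, with 2 in Tacc3, Kifc1 and Ercc6l and 1 in Stmn1. A CHR match lay 42 bases before the start in Tacc3 and 22 bases before it in Kifc1, and Stmn1 held an E2F match 79 bases before it. Over 33469 promoters of RefSeq, in windows of 300 bases that run 50 bases past the start, 37.5% held CCAAT, 11.2% held at least 2, 19.7% held a CHR, 4.03% held an E2F match and 7.95% held both CCAAT and a CHR. Among the 8839 of these whose genes were tested in all 5 tables the shares were 37.9% for CCAAT, 13.5% for a CHR, 6.61% for an E2F match and 5.63% for both CCAAT and a CHR. A match is a run of letters and not a measured binding site. Tpx2 has no entry in the promoter table.

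In experiment A, all 5 members rose at 1000 mkd, between 2.02-fold (Stmn1) and 4.19-fold (Ercc6l), and were called by edgeR. Over all genes tested in experiment A, 14.0% were called up-regulated at this dose. All 5 rats at 1000 mkd lay above all 5 control rats for 4 members (all but Kifc1), while 9.01% of the genes tested did so. At 30 and 100 mkd no member was called by edgeR or by DESeq2, and 0 members had an unadjusted p under 0.05. Of all 11323 genes tested edgeR called 0 at either dose, and 324 and 232 had an unadjusted p under 0.05. At 300 mkd 0 members were called by either tool, and Tpx2 and Stmn1 had an unadjusted p under 0.05 in edgeR, with log2 fold changes of 0.79 (SE 0.33) and 0.46 (SE 0.22). Over all 11323 genes edgeR called 0 at this dose too, and 218 had an unadjusted p under 0.05. At each of 30 and 100 mkd 0 of 25 gene and rat combinations lay above every control rat, against 7 of 25 at 300 mkd and 24 of 25 at 1000 mkd. These combinations are not independent, because the members rise together in a rat. At 300 mkd a single rat, replicate 2, was above every control rat for all 5 members, and the rest were Tpx2 in other rats. No share over all genes was taken for such combinations. None of these rats entered the choice of the members.

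At 1000 mkd in experiment A markers of hepatocytes and of other cells were called too. Of all 11323 genes tested 1580 were called higher and 844 lower at this dose. Of 10 hepatocyte markers, 5 were called lower, and their summed level was 65560 to 212300 CPM at 1000 mkd against 222800 to 312700 CPM in the control. Markers of T and NK cells were called higher in 8 of 9 tested cases, with sums of 42.6 to 78.0 CPM against 24.7 to 30.6 CPM. Of 9 macrophage markers 6 were called higher (992.4 to 1836 against 424.2 to 1266 CPM), as were 4 of 6 endothelial markers (124.3 to 248.2 against 69.5 to 151.1 CPM) and 1 of 6 stellate cell markers (63.6 to 98.7 against 46.7 to 94.1 CPM). Of 4 tested neutrophil markers Ngp was called higher and S100a8 and S100a9 lower (1.57 to 2.54 against 2.99 to 9.45 CPM), and of 6 tested erythroid markers Alas2 and Hbb were called lower (19.2 to 90.8 against 170.3 to 257.8 CPM). Of the defining markers, Hba1 was at 0 counts in every rat of both groups, and no marker of B cells or cholangiocytes was called. The part of these shifts in the members' rise was not tested. In bulk tissue, fewer cells of a type and less RNA per cell cannot be told apart.

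**Figure D1:**
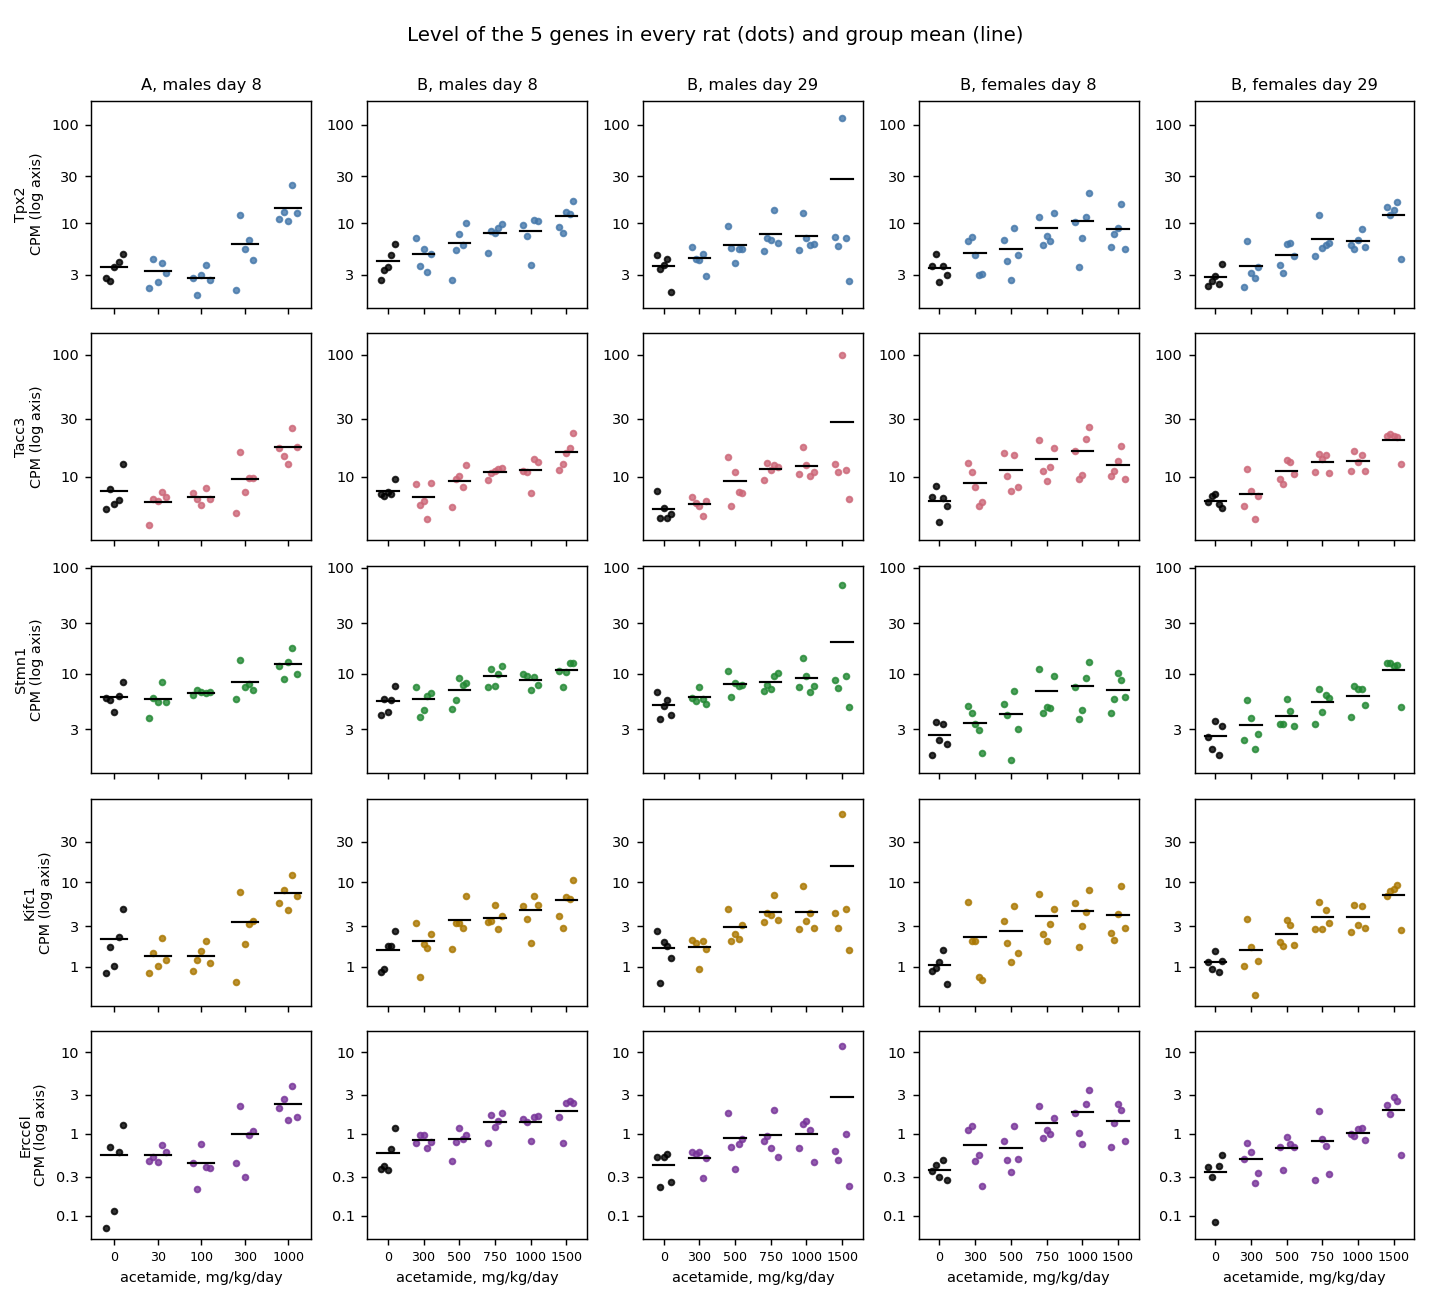
CPM (log axis) of the 5 genes in each rat, by acetamide dose in mg/kg/day, with 1 row per gene and 1 column per table. Dots are rats (black, vehicle control) and lines are group means; a single rat in males day 29 at 1500 mkd lies far above all others for each gene.

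In the 4 tables of experiment B that selected the members, the dose at which they were called differed between tables. In males day 8 all 5 were called at 1500 mkd and 0 below it, where 0.142% of the genes tested were called at 1500 mkd and the same 0.142% at any dose. Over the alternatives this call was lost in 7 of 16 for Tpx2 and Tacc3 and in 8 of 16 for Stmn1, Kifc1 and Ercc6l. In males day 29 all 5 were called at 1500 mkd only (3.16% of genes at that dose, 3.78% at any dose). DESeq2 called 4 of them there and returned no p for Tpx2. Over the alternatives the call at 1500 mkd in this table was lost in 1 of 16 for Tacc3, 2 of 16 for Stmn1 and Kifc1, 2 of 15 for Tpx2 and 7 of 15 for Ercc6l. Females day 8 had all 5 called at 1000 mkd (1.03% of genes) but Ercc6l alone at 1500 mkd (0.522% of genes, 1.34% at any dose). At 1500 mkd in these females DESeq2 called all 5, each of which had an unadjusted p under 0.05 in edgeR, and the edgeR call of Ercc6l was lost in 10 of 15 alternatives. Females day 29 had Tacc3 and Kifc1 called from 750 mkd (0.166% of genes), all but Ercc6l at 1000 mkd (1.23%) and all 5 at 1500 mkd (9.55%, and 9.79% at any dose). Nothing is read from these shares, because these calls chose the members. In 3 of the 4 tables all calls were lost without some replicate numbers, each left out of every group. This takes 1 rat from each group, so the losses cannot be put on a single rat. In males day 8 0 members were called when replicate 2, 3 or 4 was left out of every group, and in females day 8 0 when replicate 1, 3 or 5 was. For males of day 29 0 were called when replicate 3 was left out of every group, while 4 were called when only replicate 3 at 1500 mkd was. No member was called by edgeR at 300 or 500 mkd in any of these tables. Few genes of any kind were called up-regulated at these doses, at most 4 of 11451 (females day 29 at 500 mkd). DESeq2 called 1 member at 500 mkd in females day 29 and all 5 at 750 mkd in females day 8.

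The doses at which treated and control rats did not overlap were not those of the calls. For all 5 members every female of day 8 at 750 mkd lay above every control female (1.90% of the genes tested did so), as did those at 1500 mkd (1.65%), and at 1000 mkd this held for 4 members (1.82%), since 1 rat was low in Tpx2. In females day 29 the groups were apart for Tacc3 and Kifc1 at 500 mkd (1.14%), for these and Tpx2 at 750 mkd (1.72%), for all 5 at 1000 mkd (2.79%) and for all but Ercc6l at 1500 mkd (3.51%). In males day 8 they were apart for Kifc1 at 750 mkd (0.805%) and for Tpx2, Tacc3 and Kifc1 at 1500 mkd (1.45%). In males day 29 they were apart for all but Ercc6l at 750 mkd (3.29%), for Tpx2, Tacc3 and Kifc1 at 1000 mkd (4.59%) and for 0 members at 1500 mkd (2.86%), where replicate 5 was within the control range for each. Ordered by mean CPM, the dose groups of a table form 120 neighbouring pairs over the 5 members, and in all 120 the ranges of the 2 groups overlapped. Such an overlap can rest on 1 rat, and the size of a step was not compared with the spread between rats.

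**Figure D2:**
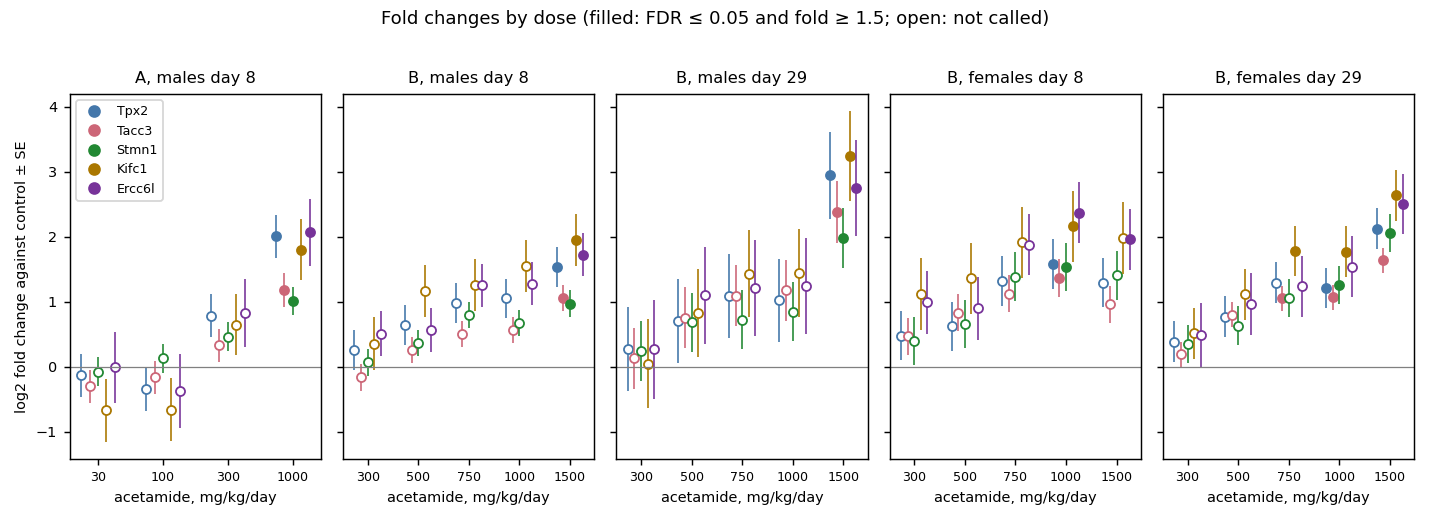
log2 fold change against the vehicle control of the same table (y axis, ± SE from edgeR) by dose in mg/kg/day, with 1 panel per table and 1 colour per gene. Filled symbols passed both limits of a call; in females day 8 the values at 1500 mkd are lower than at 1000 mkd for all 5 genes, and in males day 29 the step at 1500 mkd includes the rat that stood apart.

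Tpx2, the activator of Aurora A, was at 2.58, 2.81, 3.55, 4.06 and 4.82 CPM in the 5 control rats of experiment A. At 1000 mkd the 5 rats had 10.5, 11.0, 12.7, 13.0 and 24.7 CPM. Every treated rat was higher than every control rat, and 1 rat was well above the other 4. This was a log2 fold change of 2.01 (SE 0.34), or 4.02-fold, with an adjusted p of 0.000305 in edgeR. Over 16 alternatives the log2 fold change ran from 1.73 to 2.14, and the adjusted p did not exceed 0.00332. At 30 and 100 mkd the rats lay within 1.85 to 4.37 CPM, and at 300 mkd within 2.11 to 12.2 CPM, where 3 of 5 rats exceeded every control rat.

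In males day 8 of experiment B the vehicle rats had 2.64, 3.37, 3.57, 4.76 and 6.09 CPM of Tpx2. At 1500 mkd they had 7.91, 9.17, 12.3, 13.0 and 16.7 CPM, all above the control, with a log2 fold change of 1.54 (SE 0.31). Group means between these doses followed the order of dose, from 4.88 CPM at 300 mkd to 8.42 CPM at 1000 mkd. On day 29 the vehicle males had 2.00, 3.41, 3.76, 4.31 and 4.80 CPM and the 1500 mkd group 2.60, 5.85, 7.07, 7.21 and 118 CPM. Here 1 rat carried nearly all of the group's level, 1 rat was inside the control range, and the log2 fold change was 2.95 (SE 0.67). At 750 and 1000 mkd every male of day 29 was above every control, within 5.18 to 13.5 CPM.

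Females day 8 had 2.55, 2.99, 3.66, 3.67 and 4.85 CPM of Tpx2 without acetamide, 3.62, 7.14, 10.3, 11.7 and 20.2 CPM at 1000 mkd and 5.46, 5.71, 7.78, 8.88 and 15.8 CPM at 1500 mkd. A single rat at 1000 mkd was within the control range, and none was at 1500 mkd. The log2 fold change was 1.58 (SE 0.38) at 1000 mkd and 1.29 (SE 0.38) at 1500 mkd. Females day 29 had 2.29, 2.41, 2.59, 2.93 and 3.84 CPM in the control and 4.34, 12.2, 13.6, 14.8 and 16.4 CPM at 1500 mkd, with 2.12 (SE 0.32) as the log2 fold change. Of the treated rats, 4 were close together and 1 was just above the highest control.

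Tacc3, the partner of clathrin on kinetochore fibres, was measured at 5.44, 5.97, 6.41, 7.91 and 12.7 CPM in the vehicle rats of experiment A and at 12.8, 14.7, 17.3, 17.5 and 25.1 CPM at 1000 mkd. The groups touched but did not overlap, because 1 control rat was far above the other 4. The log2 fold change was 1.18 (SE 0.26), or 2.27-fold, with an adjusted p of 0.00172 in edgeR and of at most 0.0113 over 16 alternatives. At 30, 100 and 300 mkd the group means were 6.24 ± 1.32, 6.86 ± 0.840 and 9.66 ± 4.08 CPM (SD, n = 5), against 7.69 ± 2.95 CPM in the control.

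Of experiment B, the vehicle males of day 8 had 6.97, 7.22, 7.29, 7.55 and 9.51 CPM of Tacc3 and the 1500 mkd rats 11.5, 12.7, 15.8, 17.4 and 22.7 CPM, apart from each other, with a log2 fold change of 1.06 (SE 0.20). The mean at 300 mkd, 6.88 ± 1.92 CPM, was the lowest of that table. By day 29 the vehicle males had 4.58, 4.61, 4.94, 5.51 and 7.62 CPM and the 1500 mkd rats 6.60, 11.0, 11.4, 12.7 and 100.0 CPM, that is, a log2 fold change of 2.38 (SE 0.48). At 750 mkd the males of day 29 lay within 9.40 to 13.0 CPM and at 1000 mkd within 10.1 to 17.5 CPM, above all controls in both. Apart from the single high rat, the 1500 mkd males overlapped those at 750 and 1000 mkd.

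Females day 8 had 4.25, 5.75, 6.64, 6.80 and 8.41 CPM of Tacc3 in the control, 9.56, 10.3, 16.2, 20.5 and 25.4 CPM at 1000 mkd and 9.67, 10.1, 11.1, 13.4 and 17.8 CPM at 1500 mkd. Both treated groups were above the control in every rat, and the log2 fold changes were 1.37 (SE 0.29) and 0.96 (SE 0.29). On day 29 the females were apart already at 500 mkd, with 5.60, 5.99, 6.18, 6.98 and 7.21 CPM in the control and 8.71, 9.55, 10.6, 13.1 and 13.7 CPM at 500 mkd. At 1500 mkd the rats had 12.8, 21.3, 21.4, 21.5 and 22.3 CPM, with 4 of them within a narrow range and 1 below, and a log2 fold change of 1.64 (SE 0.20).

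Stmn1, which encodes the tubulin-binding stathmin, had the smallest of the 5 fold changes in experiment A. Its control rats had 4.35, 5.63, 5.89, 6.14 and 8.43 CPM and its 1000 mkd rats 8.91, 10.1, 11.9, 12.9 and 17.7 CPM. All treated rats were higher than all controls. The log2 fold change was 1.01 (SE 0.22), or 2.02-fold, with an adjusted p of 0.00191 in edgeR and of at most 0.0111 over 16 alternatives. At 100 mkd the 5 rats were within 6.25 to 7.01 CPM, and at 300 mkd they had 8.41 ± 3.01 CPM (SD, n = 5).

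For males of day 8 in experiment B, Stmn1 was at 4.13, 4.41, 5.65, 5.77 and 7.68 CPM in the control and at 7.59, 10.5, 10.7, 12.6 and 12.7 CPM at 1500 mkd, where 4 of 5 rats exceeded every control and the log2 fold change was 0.97 (SE 0.20). Control males of day 29 had 3.71, 4.08, 5.01, 5.65 and 6.78 CPM and the 1500 mkd group 4.87, 7.40, 8.80, 9.49 and 69.3 CPM, with a log2 fold change of 1.99 (SE 0.46). Of the treated males 4 were above every control and 1 was among them.

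Females had less Stmn1 without acetamide than males. Vehicle females had 1.70, 2.17, 2.38, 3.37 and 3.53 CPM on day 8 and 1.71, 1.93, 2.53, 3.24 and 3.60 CPM on day 29, and all 10 were below the 15 vehicle males of both experiments, the lowest of which had 3.71 CPM. On day 8 they had 3.76, 4.60, 7.53, 9.22 and 12.9 CPM at 1000 mkd and 4.31, 5.74, 6.05, 8.76 and 10.2 CPM at 1500 mkd, with log2 fold changes of 1.54 (SE 0.38) and 1.41 (SE 0.38) and no overlap with the control at either dose. On day 29 the 1500 mkd females had 4.89, 11.8, 12.1, 12.6 and 12.7 CPM, a log2 fold change of 2.06 (SE 0.30), and 4 of the 5 were nearly equal. The tables of the sexes were normalized separately, and the difference of the vehicle groups was not tested.

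Kifc1, the minus-end kinesin, was the member whose groups overlapped at 1000 mkd in experiment A. The control rats had 0.842, 1.02, 1.71, 2.26 and 4.86 CPM and the treated rats 4.70, 5.64, 6.89, 8.03 and 12.2 CPM, so that the highest control was above the lowest treated rat. The log2 fold change was 1.80 (SE 0.47), or 3.49-fold, with an adjusted p of 0.00644 in edgeR and of at most 0.0233 over 16 alternatives. It ranged from 1.57 to 2.35 over these, highest without that control rat (replicate 5). At 30 and 100 mkd the means of 1.34 ± 0.533 and 1.35 ± 0.430 CPM (SD, n = 5) were below the control mean of 2.14 ± 1.62 CPM, with log2 fold changes of -0.67 (SE 0.49) and -0.66 (SE 0.49) that were not called.

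Vehicle males of day 8 had 0.856, 0.942, 1.74, 1.77 and 2.67 CPM of Kifc1 and the 1500 mkd rats 2.87, 3.95, 6.40, 6.71 and 10.7 CPM, which did not overlap, and the log2 fold change was 1.96 (SE 0.40). At 750 mkd the rats had 2.80, 3.40, 3.43, 3.95 and 5.41 CPM, again above all controls. Among males of day 29 the control had 0.638, 1.26, 1.75, 1.95 and 2.64 CPM and the 1500 mkd group 1.57, 2.88, 4.34, 4.80 and 64.6 CPM. The log2 fold change there was 3.24 (SE 0.70), the highest of any member in any table, and it rested on 1 rat.

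Females day 8 had 0.621, 0.889, 0.963, 1.15 and 1.59 CPM of Kifc1 in the control, 1.71, 3.05, 4.45, 5.67 and 8.10 CPM at 1000 mkd and 2.07, 2.48, 2.85, 4.21 and 9.07 CPM at 1500 mkd. Every treated rat of these doses exceeded every control, and the log2 fold changes were 2.16 (SE 0.55) and 1.99 (SE 0.55). On day 29 the control females had 0.856, 0.951, 1.13, 1.16 and 1.55 CPM, the 500 mkd group 1.75, 1.80, 1.94, 3.09 and 3.61 CPM and the 1500 mkd group 2.72, 6.88, 7.96, 8.32 and 9.27 CPM. All treated rats of both doses were above the control, and the log2 fold change at 1500 mkd was 2.64 (SE 0.39).

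Ercc6l, the gene of the anaphase bridge translocase PICH, was the most thinly counted member, with a median of 20 reads per rat and as few as 2. In experiment A the control rats had 0.0702, 0.113, 0.602, 0.690 and 1.28 CPM and the 1000 mkd rats 1.48, 1.61, 2.07, 2.71 and 3.84 CPM, without overlap. The log2 fold change was 2.07 (SE 0.52), or 4.19-fold, with an adjusted p of 0.00476 in edgeR and of at most 0.0283 over 15 alternatives. With at least 10 counts required in every rat it was not tested. Its control rats were far apart from each other, and its SE was the largest of the 5 members.

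Among males of day 8, Ercc6l was at 0.367, 0.372, 0.400, 0.654 and 1.17 CPM in the control and at 0.770, 1.60, 2.36, 2.40 and 2.51 CPM at 1500 mkd, where 4 of 5 rats exceeded every control and the log2 fold change was 1.73 (SE 0.33). In males day 29 the control had 0.225, 0.260, 0.522, 0.528 and 0.572 CPM and the 1500 mkd group 0.232, 0.473, 0.621, 0.989 and 11.9 CPM, with a log2 fold change of 2.75 (SE 0.73). Of these treated rats 2 were within the control range, and at no dose of that table were the groups apart.

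Females day 8 had 0.272, 0.297, 0.348, 0.417 and 0.481 CPM of Ercc6l in the control, 0.754, 1.02, 1.79, 2.34 and 3.48 CPM at 1000 mkd and 0.686, 0.831, 1.36, 1.95 and 2.33 CPM at 1500 mkd. No treated rat of these doses overlapped the control, and Ercc6l was the only member called at both by edgeR (DESeq2 called all 5 at both), with log2 fold changes of 2.37 (SE 0.47) and 1.96 (SE 0.47). By day 29 the control females had 0.0838, 0.295, 0.389, 0.408 and 0.560 CPM and the 1500 mkd group 0.553, 1.74, 2.25, 2.49 and 2.85 CPM, a log2 fold change of 2.50 (SE 0.46), with 1 treated rat just below the highest control.

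The limit of the rule fell among other mitotic genes. For each gene the highest over the 4 tables of its lowest adjusted p, among doses with at least 1.5-fold higher levels, decides whether it was taken. The members' values were 0.0333 for Tpx2, Tacc3 and Ercc6l, 0.0363 for Stmn1 and 0.0404 for Kifc1. They were set by males day 8 at 1500 mkd for all but Kifc1, which was set by females day 8 at 1000 mkd. Just outside were Dlgap5, a microtubule bundler that Aurora A phosphorylates (0.0513), Cdca8, the borealin of the chromosomal passenger complex (0.0578), and Haus4, a subunit of the microtubule nucleating augmin complex (0.0582). All 3 were set by males day 8 at 1500 mkd, where they were 3.60-fold, 2.33-fold and 2.06-fold higher. The members therefore differ from these neighbours by little in the values that chose them.

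Replicate 3 of the 1500 mkd males of day 29 had 118 CPM of Tpx2, 100.0 CPM of Tacc3, 69.3 CPM of Stmn1, 64.6 CPM of Kifc1 and 11.9 CPM of Ercc6l. The other 4 rats of its group had means of 5.68 ± 2.14, 10.4 ± 2.65, 7.64 ± 2.04, 3.40 ± 1.47 and 0.579 ± 0.317 CPM (SD, n = 4), in the same order. The rat exceeded these means by 9.07-fold (Stmn1) to 20.8-fold (Tpx2). Without it, the log2 fold changes at 1500 mkd were 0.57 (SE 0.33) for Tpx2, 0.87 (SE 0.23) for Tacc3, 0.53 (SE 0.22) for Stmn1, 0.97 (SE 0.39) for Kifc1 and 0.36 (SE 0.48) for Ercc6l. Of the 5 members only Tacc3 was called without it at 1500 mkd (1.12% of genes). Tpx2, Tacc3, Stmn1 and Kifc1 were then called at 750 mkd (1.23% of genes) and at 1000 mkd (2.61%), where they had not been with all rats. At any dose 4 members were thus called without this rat (3.42% of genes), and Ercc6l was not.

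Other values of this rat differed from its group as well. Its 10 hepatocyte markers summed to 84490 CPM against 158300 to 195700 CPM in the other 4, and its 6 endothelial markers to 240.6 CPM against 61.9 to 119.8 CPM. T and NK cell markers summed to 49.6 CPM (19.6 to 37.1 CPM in the others), cholangiocyte markers to 31.2 CPM (17.7 to 23.9 CPM) and stellate cell markers to 101.7 CPM (72.3 to 90.0 CPM). Macrophage markers, at 966.6 CPM, were within the range of the others (442.3 to 1095 CPM), and erythroid markers, at 22.8 CPM, were below theirs (46.2 to 482.0 CPM). Its depth, 24937813 reads on genes, was within the group's range. The part of these differences in the members' level was not tested.

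Vehicle levels were set side by side across tables. From the lowest to the highest group mean they differed by 1.41-fold for Tacc3, 1.45-fold for Tpx2, 1.71-fold for Ercc6l, 2.05-fold for Kifc1 and 2.34-fold for Stmn1. Neighbours in that order overlapped in all 4 steps for each member except Stmn1, where the step from females to males did not. At the shared dose of 1000 mkd on day 8, males of experiment A had 14.4 ± 5.86 CPM of Tpx2 and males of experiment B 8.42 ± 2.90 CPM (SD, n = 5). The same groups had 7.50 ± 2.93 and 4.62 ± 1.91 CPM of Kifc1, 17.5 ± 4.68 and 11.4 ± 2.58 CPM of Tacc3, 12.3 ± 3.39 and 8.79 ± 1.24 CPM of Stmn1 and 2.34 ± 0.967 and 1.40 ± 0.343 CPM of Ercc6l. The means of experiment A were higher for all 5, strain and table differed between them, and no test was made.

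Rats of the same group that were high in a member were high in the others. Levels were taken as log2 CPM (prior count 2) minus the mean of the rat's own dose group, and the 10 pairs of members were correlated over all rats. Subtracting the mean removes the differences between group means that chose the members. It does not remove the shared deviation of the rat that stood apart in males day 29. That rat was among those that entered the choice. Without it only Tacc3 was called at 1500 mkd, while 4 members, all but Ercc6l, were called at any dose. Pearson's r ran from 0.73 (Stmn1 with Ercc6l) to 0.87 (Tacc3 with Kifc1), with a median of 0.83, and Spearman's rho from 0.67 to 0.82. In a two-sided permutation test that shuffled rats within their groups, each pair had p = 1e-05 for r and for rho, the smallest that 100000 resamples can give, and an adjusted p of 1e-05 over the 10 pairs. Both genes of a pair share the library and its scaling factor. These p include the rat that stood apart, and none was computed without it or in experiment A alone. Leaving out the 2 rats farthest from the median of the first gene gave r between 0.64 and 0.84. Within single tables r ranged from 0.52 to 0.95, with a median of 0.76 in experiment A, 0.70 (day 8) and 0.91 (day 29) in males of experiment B and 0.85 (day 8) and 0.75 (day 29) in its females.

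Without the rat that stood apart, the 10 pairs had r between 0.64 and 0.84 over 144 rats, and the median in males day 29 was 0.71. Of all rats, 39 were above their group mean for all 5 members and 38 were below it for all 5. The highest mean deviation after that rat was 1.14 on the log2 scale, in replicate 2 of the 300 mkd males of experiment A. A control rat of the same table, replicate 5, followed among the highest at 0.96, so that a joint shift of the members was also seen without acetamide.

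**Figure D3:**
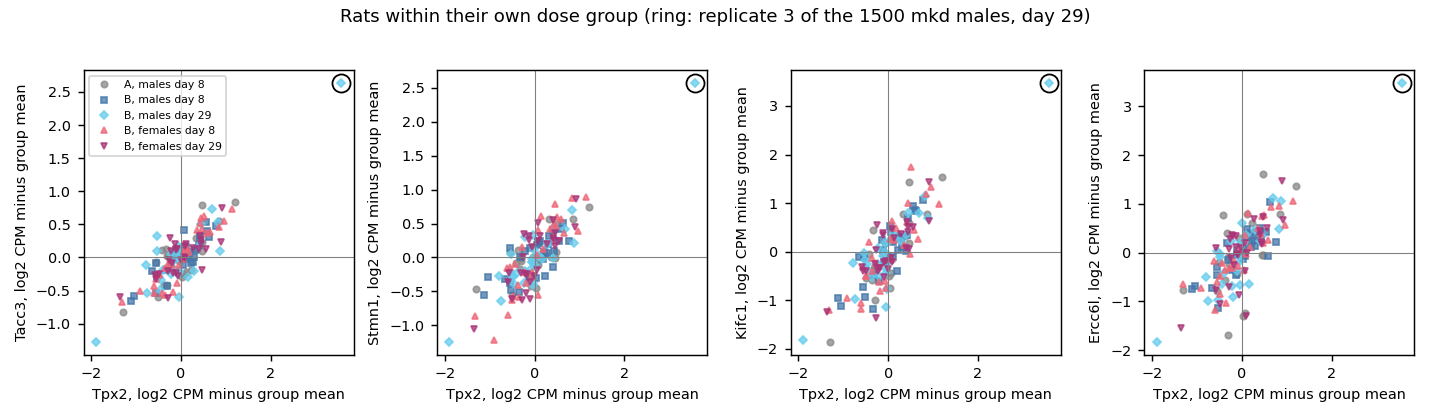
Deviation of Tpx2 (x axis) and of each other member (y axis) from the mean of the rat's own dose group, in log2 CPM, for all rats, marked by table. The points lie along a rising band in each panel, with r against Tpx2 of 0.87 for Tacc3, 0.84 for Stmn1, 0.85 for Kifc1 and 0.79 for Ercc6l; the ringed rat is replicate 3 of the 1500 mkd males of day 29.

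Set against the mean of the other 4 members, Tpx2 had r = 0.90 and ranked 10 of 11062 genes, Tacc3 0.90 (rank 16), Kifc1 0.89 (rank 16), Stmn1 0.87 (rank 41) and Ercc6l 0.81 (rank 67). These ranks are a description over all rats. Without the rat that stood apart Tpx2 had 0.86 (rank 18), Tacc3 0.86 (rank 23), Kifc1 0.86 (rank 16), Stmn1 0.81 (rank 45) and Ercc6l 0.74 (rank 67). The 10 genes most alike to the mean of the 5 members by the same measure were Dlgap5 (0.94), Kif22 (0.94), Prc1 (0.93), Mki67 (0.93), Nusap1 (0.93), Ccna2 (0.92), Bub1b (0.92), Kif2c (0.91), Cdc20 (0.91) and Arhgap11a (0.91). Among them are the chromokinesin Kif22, the midzone crosslinker Prc1, the proliferation marker Mki67, the spindle assembly factor Nusap1, the mitotic cyclin gene Ccna2, the checkpoint kinase gene Bub1b, the depolymerizing kinesin Kif2c and the activator of the anaphase-promoting complex Cdc20. Of these 10, 8 were again among the 10 most alike without the rat that stood apart, with r from 0.87 to 0.93 for the 10. Of the 11066 genes tested in all 5 tables, 230 genes other than the members had an r of at least 0.5, and of 76 other spindle genes 47 did.

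Relatives of the members by gene family were taken at the highest dose of each table. Of 8 relatives in the files, 6 were tested in each table, and Stmn2 and Stmn4, which are nerve cell stathmins, had at most 5 and 3 reads in any rat and were not tested. There 2 of 6 were called up-regulated in experiment A, 2 of 6 in females day 29, 1 of 6 in males day 29 and 0 of 6 in each day 8 table of experiment B, and none was called down-regulated. Over all genes tested 14.0%, 9.55% and 3.16% were called up-regulated in the first 3 of these. In the day 8 tables of experiment B the shares were 0.142% in males and 0.522% in females. In both tables with 0 calls, 1 relative had an unadjusted p under 0.05 in edgeR (Kifc3). The medians of the 6 log2 fold changes lay between 0.09 and 0.48, while medians over all genes tested lay within 0.07 of 0.

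Kifc3, a minus-end kinesin of cell junctions, rose in experiment A from 9.98 ± 3.00 to 25.7 ± 7.47 CPM (SD, n = 5), a log2 fold change of 1.36 (SE 0.26) and an adjusted p of 0.000667 in edgeR. It was also called in males day 29, with 0.90 (SE 0.26), but not without the rat that stood apart, with 0.61 (SE 0.25), and in females day 29, with 0.75 (SE 0.19). Kifc2, a kinesin of nerve cells, was not called in any table, with log2 fold changes from -0.20 to 0.46. Tacc1 was called in experiment A, with 0.73 (SE 0.18) and an adjusted p of 0.00444 in edgeR, and in females day 29, with 0.94 (SE 0.23). Tacc2 was not called, although its adjusted p in experiment A was 0.0116 (edgeR), because its log2 fold change of 0.51 (SE 0.15) was under the limit of size. Stmn3 was not called, with log2 fold changes from -0.25 to 1.14. Ercc6, the repair gene of Cockayne syndrome, was not called either, with log2 fold changes from -0.20 to -0.04.

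**Figure D4:**
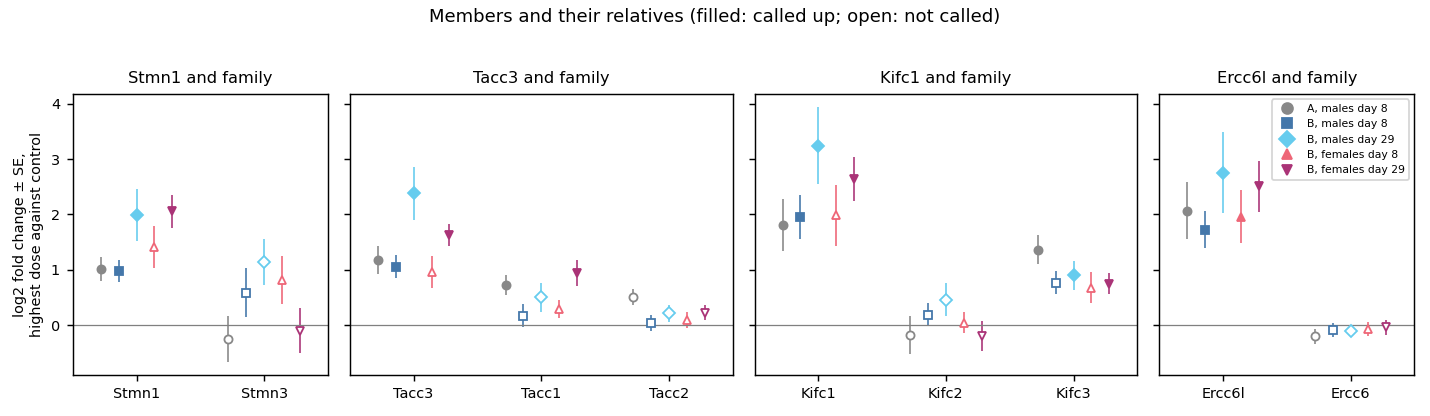
log2 fold change at the highest dose against the vehicle control (y axis, ± SE from edgeR) of 4 members and their tested relatives, marked by table. Filled symbols were called up-regulated; Ercc6, Kifc2, Tacc2 and Stmn3 have open symbols in all 5 tables, and Kifc3 is filled in 3 of them.

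Other genes of the spindle were taken from a list written from textbook roles, of which 78 of 99 were in the files and 76 were tested in each table. At 1000 mkd in experiment A, 48 of 76 were called up-regulated and 0 down-regulated, with a median log2 fold change of 1.22, beside 14.0% of all genes called and a median within 0.01 of 0 over all genes. In males day 8 at 1500 mkd 0 of 76 were called by edgeR, with a median of 0.90, while 46 had an unadjusted p under 0.05 and DESeq2 called 30. Males day 29 had 46 of 76 called (median 1.93), and 10 of 76 without the rat that stood apart. DESeq2 called 30 there and gave no adjusted p for 19 of the 78 genes, Aurka and Plk1 among them. Females day 8 had 4 of 76 called (median 0.92, 43 with an unadjusted p under 0.05), and DESeq2 called 30. Females day 29 had 45 of 76 called (median 1.29). No gene of the list was called down-regulated at the highest dose in any table.

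By role, the calls in experiment A covered 6 of 6 tested genes of sister chromatids and the passenger complex, 4 of 4 of the midzone and cytokinesis, 8 of 9 motors and 16 of 19 kinetochore and checkpoint genes. They covered 5 of 11 genes around Tpx2 and Aurora A, 6 of 15 of the poles and nucleation, 2 of 9 of microtubule dynamics and 1 of 3 around Tacc3 and clathrin. On day 29 of experiment B the counts were 6 of 6, 4 of 4, 7 of 9 and 16 of 19 in males and 6 of 6, 4 of 4, 7 of 9 and 15 of 19 in females. The groups around Tpx2 and the poles had 5 of 11 and 6 of 15 in both, microtubule dynamics 2 of 9, and the Tacc3 and clathrin group 0 of 3. The counts of males day 29 include the rat that stood apart, without which 10 of the 76 were called. Median log2 fold changes in experiment A were 1.89, 1.95, 1.58 and 1.43 in the first 4 roles and between -0.07 and 0.48 in the others.

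**Figure D5:**
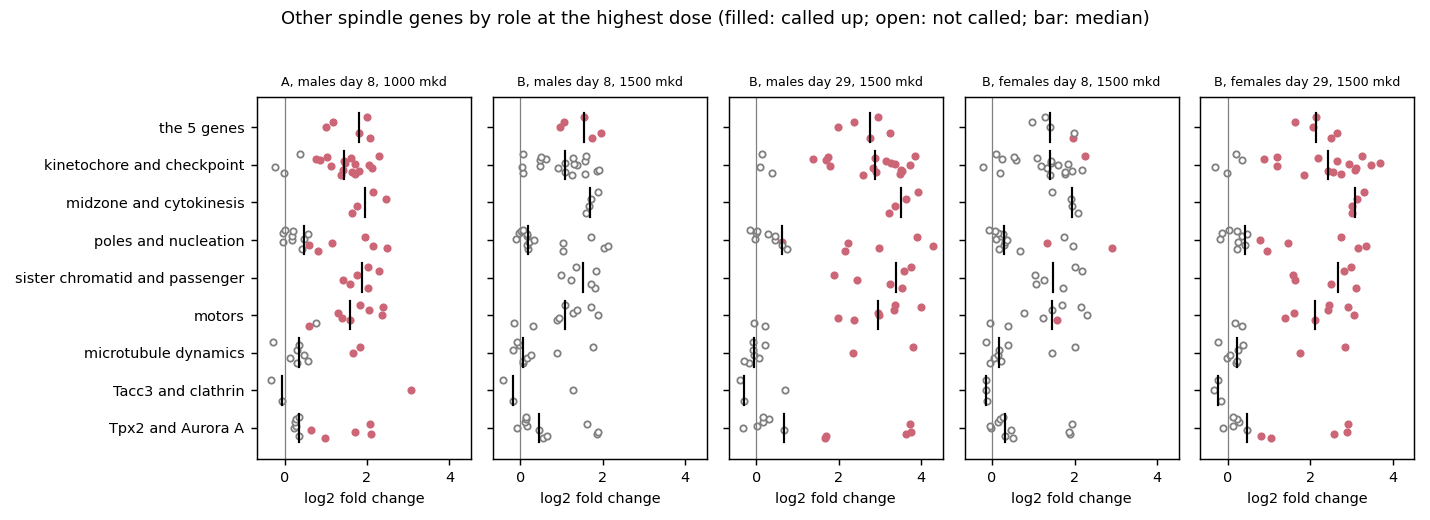
log2 fold change at the highest dose (x axis) of 76 other spindle genes by role and of the 5 members, with 1 panel per table. Filled symbols were called up-regulated and bars are medians; the medians of sister chromatid, midzone, motor and kinetochore genes are above 1 in all 5 tables, and those of the Tacc3 and clathrin group are below 0.

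Direct partners of the members were read in the same fits. Aurka, the kinase that Tpx2 activates and that acts on Tacc3, rose in experiment A from 5.88 ± 0.802 to 11.6 ± 3.19 CPM (SD, n = 5), a log2 fold change of 0.97 (SE 0.19) with an adjusted p of 0.000823 in edgeR. On day 29 it was called in males, with 1.67 (SE 0.38), but not without the rat that stood apart, with 0.52 (SE 0.15), and in females, with 1.04 (SE 0.18), and on day 8 of experiment B it was not called, with 0.54 (SE 0.19) in males and 0.51 (SE 0.25) in females. Cltc, the clathrin heavy chain that binds Tacc3 and serves vesicle traffic in all cells, was not called in any table, with log2 fold changes from -0.30 to -0.07. Without the rat that stood apart its value in males day 29 was -0.50 (SE 0.13), which was not called. Plk1, a mitotic kinase that binds PICH, rose in experiment A from 1.26 ± 0.767 to 6.22 ± 2.60 CPM (SD, n = 5), with 2.29 (SE 0.43) and an adjusted p of 0.000616 in edgeR. Plk1 was also called on day 29 in both sexes and on day 8 of experiment B in neither. In males day 29 it was not called without the rat that stood apart, with 0.99 (SE 0.37). Kif11, the plus-end kinesin that opposes Kifc1 at the poles, rose in experiment A from 3.27 ± 1.07 to 9.79 ± 2.84 CPM (SD, n = 5), with 1.58 (SE 0.32) and an adjusted p of 0.00112 in edgeR. It was called in 4 of the 5 tables, all but males day 8, where its log2 fold change was 0.90 (SE 0.27), and without the rat that stood apart its value in males day 29 was 0.33 (SE 0.34), which was not called. Ckap5, the gene of ch-TOG, was not analysed here.

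The called spindle genes with the largest fold changes are named here by a fixed rule. In experiment A they were Gtse1, a microtubule protein that Aurora A and clathrin bring to the spindle, with 3.08 (SE 0.49) and an adjusted p of 0.0002 in edgeR, and the microtubule-associated Ckap2, with 2.48 (SE 0.54) and 0.00193. Gtse1 was not called at the highest dose of any experiment B table, with values from -0.33 to 1.28, and its control mean was 2.31 CPM in experiment A against 29.2 and 26.7 CPM in females of day 8 and 29, in tables normalized separately. For females day 29 they were Sgol2, a protector of cohesion, with 3.70 (SE 0.53), and the kinetochore gene Ndc80, with 3.48 (SE 0.57). The control rats had only 0 to 4 reads of Sgol2 and 3 to 10 of Ndc80, so these sizes rest on few reads. For males day 29 they were Fam83d, with 4.29 (SE 0.83), and Kif22, with 3.99 (SE 0.76), and their highest values in the group were 24.3 and 100.2 CPM. Without the rat that stood apart both were still called, with 1.60 (SE 0.47) and 1.40 (SE 0.38). For females day 8 they were Ckap2, with 2.90 (SE 0.71), and the checkpoint kinase gene Ttk, with 2.25 (SE 0.55), and the other called genes were Kif11 and Haus4.

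Marker lists of liver cells were also read at 1500 mkd in experiment B. In males day 8 and females day 8, 0 of the tested markers of all 9 cell types was called at 1500 mkd in either direction by edgeR. Few genes were called there at all, 16 higher and 4 lower of 11304 in males and 60 and 21 of 11497 in females. There 4 of 55 in males and 6 of 55 in females had an unadjusted p under 0.05, and DESeq2 called 0 in males and 1 (lower) in females. Among males day 29 only Cyp2e1, a hepatocyte marker, was called (higher) by edgeR, and DESeq2 called 2 markers higher. Of all 11279 genes edgeR called 356 higher and 198 lower there. Among females day 29 edgeR called 14 of 55 markers higher and 7 lower, and DESeq2 18 and 8. Of all 11451 genes edgeR called 1093 higher and 405 lower in this table. By edgeR, of 10 hepatocyte markers 4 were called lower in these females and Apoa1 higher, with sums of 78130 to 175900 CPM at 1500 mkd against 170900 to 352200 CPM in the control. In the same females 4 of 9 macrophage markers (927.4 to 1657 against 776.8 to 969.5 CPM), 2 of 8 T and NK cell markers (37.5 to 76.9 against 20.0 to 49.4 CPM) and 2 of 6 endothelial markers (213.5 to 335.5 against 90.2 to 290.1 CPM) were called higher. Single markers of cholangiocytes (Sox9) and stellate cells (Pdgfrb) and 2 of neutrophils were called higher, and of 6 erythroid markers 3 were called lower and Epor higher. The part of these shifts in the members' levels was not tested.

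Replicate 5 of the 1500 mkd females of day 29, the low rat for all members, had 37.5 CPM of T and NK cell markers against 55.1 to 76.9 CPM in the other 4 rats, 927.4 CPM of macrophage markers against 1073 to 1657 CPM and 175900 CPM of hepatocyte markers against 78130 to 163600 CPM. It also had the fewest reads on genes of its group, 22718135 against 26812201 to 31112681. Whether these differences have a part in its low member levels was not tested. Without this rat the log2 fold changes at 1500 mkd were 2.34 (SE 0.28) for Tpx2, 1.76 (SE 0.19) for Tacc3, 2.24 (SE 0.28) for Stmn1, 2.84 (SE 0.38) for Kifc1 and 2.73 (SE 0.43) for Ercc6l, and all 5 were still called.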

How the data were processed

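RNA of rat liver was sequenced from a stranded library kit, 1 library per rat. Per the labels and the study's methods, the authors checked reads with FASTQC, trimmed them with Trimmomatic (leading 7 and trailing 3 bases, reads under 50 bases dropped), aligned them with Bowtie2 to Rn6 and counted them on Rn6 gene models with HTSeq. The files hold raw counts as deposited by the authors, without normalization. Tool versions and the strand setting of HTSeq are not given in the sources used here. Summary lines that name no gene (35.5% to 67.1% of all counts, median 41.2%, experiment B tables) were left out.

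Each of the 5 tables was fitted separately with edgeR 4.0.16 (R 4.3.3; TMM factors, filterByExpr, glmQLFit and glmQLFTest, all dose groups in the fit). A gene was called when it reached 1.5-fold with an adjusted p (Benjamini-Hochberg, all genes tested) not above 0.05. CPM values use the TMM factors. DESeq2 1.42.0, its size factors, fits without the filter or with a minimum of 10 counts in each rat, a replicate block, a fit of control and highest dose alone, and each replicate left out were the alternatives. The fit was tested on simulated data.

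The members, the gene lists and the tests were chosen with earlier results of these data known. Genes other than members were named by rule. These were their relatives, the partners Aurka, Ckap5, Cltc, Plk1 and Kif11, the 2 called spindle genes of largest fold change per table and any called down, the 3 genes nearest outside the limit of the choice, and the 10 most alike within groups. Marker genes were named from the fixed cell type lists. Promoters and overlapping genes come from RefSeq tables of GRCr8, whose coordinates are not those of Rn6.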

Additional observations from a re-analysis of the deposited data

Results flagged for a closer look

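For each member and dose group the rat farthest from the others was compared with Dixon's limit for 5 values. Each of the 5 members was compared in all 29 groups, the vehicle groups included. Chance alone passes the limit in about 1 of 20 such comparisons, so part of the passes may be chance. The limit was passed in 13 comparisons, which are not independent, because the members deviate together in a rat. Replicate 3 of the 1500 mkd males of day 29 passed for Tpx2 (118 CPM, the other 4 rats at most 7.21), Tacc3 (99.96 CPM, at most 12.7) and Stmn1 (69.32 CPM, at most 9.49). Its Kifc1 (64.57 CPM, at most 4.8) and Ercc6l (11.93 CPM, at most 0.989) did not pass on the log scale, though both were far above the group. Replicate 5 of the 1500 mkd females of day 29 passed on the low side for Tpx2 (4.341 CPM, the other 4 rats at least 12.2), Tacc3 (12.81 CPM, at least 21.3), Stmn1 (4.894 CPM, at least 11.8) and Kifc1 (2.724 CPM, at least 6.88). In experiment A the 1000 mkd group had a high rat for Tpx2 (replicate 4, 24.67 CPM against at most 13.0) and the 30 mkd group a low one for Tacc3 (replicate 1, 4.021 CPM against at least 6.28). In males day 8 a control rat was high for Tacc3 (replicate 5, 9.512 CPM against at most 7.55). Low rats in males day 8 were replicate 1 at 750 mkd for Tpx2 (4.962 CPM against at least 8.03) and replicate 3 at 1000 mkd for Ercc6l (0.8224 CPM against at least 1.39). In males day 29 at 300 mkd replicate 4 was low for Ercc6l (0.2916 CPM against at least 0.512).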

How the results depend on the processing

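In experiment A the 5 members were called under all alternatives except that Ercc6l was not tested when 10 counts were required in every rat. No log2 fold change of a member at the highest dose changed sign under any alternative. Requiring at least 10 counts in every rat left 29 other spindle genes called in experiment A (48 otherwise), 5 in males day 8 (0 otherwise), 2 in females day 8 (4) and 25 in females day 29 (45), with fewer genes tested, and 3 members in females day 8 (5). DESeq2 called 30 other spindle genes in each of males day 8, males day 29 (46 otherwise) and females day 8. In males day 29 it gave no adjusted p for 19 of 78 of them or for Tpx2 at 1500 mkd, and these are not counted as lost calls. DESeq2 size factors gave 5 in males day 8. A fit of control and highest dose alone gave 0 in males day 29 and 1 in females day 8. With a replicate block, 11 other spindle genes were called in males day 8 and 0 in females day 8, 3 members were called in females day 8, and Ercc6l lost its call at 1500 mkd in males day 29 and females day 8. No other call of a member at the highest dose changed with the block. Same-numbered control and treated rats had correlated deviations above 0.1 in 2 of 5 numbers in experiment A, 4 in males day 8 and 3 in each other table. The main fits did not pair the rats by number. Treated rats were most alike to their own number in 2 of 5 cases in experiment A, in 4 (day 8) and 2 (day 29) among males and in 3 and 1 among females. Chance alone gives about 1 of 5. Whether rats of the same number are more alike than by chance was not tested.

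Without a replicate number in every group, members called at any dose numbered 0 to 5 in males day 8 (0 without replicate 2, 3 or 4), 0 to 5 in males day 29 (0 without replicate 3) and 0 to 4 in females day 8 (0 without replicate 1, 3 or 5). Leaving out the high rat of males day 29 alone, an alternative chosen after seeing the data, left 4. With single control or highest-dose rats left out, other spindle genes called ranged from 0 to 28 in males day 8 (28 without control replicate 5, 10 without replicate 2 at 1500 mkd), 10 to 46 in males day 29 (10 without replicate 3 at 1500 mkd) and 0 to 23 in females day 8 (23 and 17 without replicates 1 and 5 at 1500 mkd, 0 without any other rat). The median correlation of member pairs was 0.77 without the high rat and 0.81 to 0.84 without a replicate number. The cause of these changes was not tested.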
